A study of Mus musculus with 7 samples.

Results

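Interferon response and antigen presentation genes were described in the retina of mice given angiotensin II (Ang II), a peptide hormone that raises blood pressure, or saline by infusion. The genes were 32 symbols, each found once in a count table of 54532 gene IDs. The 4 Ang II libraries and 3 saline libraries were all taken on day 28 from the retina, the light-sensing layer of the eye. The series text gives all the mice as ApoE-/-, while the sample labels give the genotype of all 7 as WT. Apoe, which encodes apolipoprotein E, had 291, 253, 406 and 373 counts in the Ang II libraries, against 304, 150 and 273 for saline, which does not decide between the 2 labels. The labels used here give no strain, age, dose or number of animals per library, so p-values measure the spread between these libraries, which may be technical. Values are listed in replicate order, Ang II 1 to 4 and then saline 1 to 3.

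Interferons are secreted proteins that cells release after sensing viral nucleic acid or other danger signals. Type I interferons bind a receptor whose kinases activate a complex that holds STAT2 and IRF9, and this complex binds interferon-stimulated response elements (ISREs) in front of its target genes. Type II interferon acts in part through IRF1, and it also raises the genes that load peptides on class I and class II major histocompatibility molecules for display to T cells. The retina is an immune-privileged tissue in which resident microglia are the main immune cells.

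Promoters of 24 of the 32 genes were found in the RefSeq promoter table (GRCm38.p6, the mm10 assembly; 250 bases before to 50 bases after each start). The ISRE core, searched as 2 GAAA half-sites with any 2 bases between them, on both strands, was present in the promoters of 13 of these 24 genes (54.2%), against 3.99% of all 27025 genes in the table. In 11 of the 13 it lay before the start, and in the RNA sensor genes Ifih1 and Ddx58 it lay after it. A match is a description of these letters and not a measured binding site. The remaining genes of the 24 had no match in their promoters. They were Oasl2, Irf7, Ifit2, H2-K1, H2-D1, Irf1, Irf9, Ifi35, Ifi44, Tap1 and Tapbp, which are also described below. The stretches below are from some of the genes with the core before the start. They are written 5′ to 3′ on the strand of the gene, with the ISRE core (GAAA half-sites, or TTTC when read on the other strand) in capitals. These stretches show that the core occurs once or in tandem, and in either orientation.
Gbp3, chr3:142559987-142560026, plus strand: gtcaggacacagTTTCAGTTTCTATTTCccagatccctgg
Gbp7, chr3:142530271-142530304, plus strand: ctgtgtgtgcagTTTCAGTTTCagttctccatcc
Bst2, chr8:71537575-71537614, minus strand: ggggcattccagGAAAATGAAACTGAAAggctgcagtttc
Isg15, chr4:156200863-156200908, minus strand: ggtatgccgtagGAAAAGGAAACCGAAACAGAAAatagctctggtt
Ifit1, chr19:34640773-34640825, plus strand: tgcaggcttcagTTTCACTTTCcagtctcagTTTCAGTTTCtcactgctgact
Ifit3, chr19:34583361-34583428, plus strand: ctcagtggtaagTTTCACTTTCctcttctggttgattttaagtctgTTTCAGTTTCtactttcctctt
Stat2, chr10:128270264-128270297, plus strand: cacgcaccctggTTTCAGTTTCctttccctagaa
B2m, chr2:122147536-122147569, plus strand: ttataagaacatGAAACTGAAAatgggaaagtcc

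Totals were 14655431 to 17563493 counts per library. The libraries differed in the RNA of marker genes for tissue beside the neural retina. Summed over 14 markers, pigment epithelium and melanocyte genes stood at 1588.3 to 2331.7 CPM (counts per 1000000 of the scaled library size) in Ang II and 602.5 to 1477.4 CPM in saline. Rlbp1, among these markers, was also in the list for retinal glia. Whether tissue carried over at dissection or altered expression gave these sums was not tested. Lens and cornea genes reached 1904.7 CPM in Ang II replicate 2 and lay between 3.38 and 399.8 CPM elsewhere. Ang II replicate 3 stood apart in Gfap, a marker of stressed glia, with 79.8 CPM and at most 9.60 CPM elsewhere. Markers of rods, the photoreceptors of dim light, summed to 59251.0 to 71212.5 CPM with Ang II and to 71956.4 to 77690.8 CPM with saline. Neither the pigment epithelium nor the rod sums overlapped between the groups, and their part in the values below was not tested. In bulk tissue, fewer cells of a type and less RNA per cell cannot be told apart.

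Of the 32 genes, 27 were measurable in the sense of passing the filter on low counts, and 5 were not. Per kilobase of gene length, 4 class I genes were the most abundant. B2m, which encodes the light chain of every class I molecule, stood at 36.4 ± 4.66 CPM per kilobase (SD, n = 7 libraries). It was followed by the heavy chain gene H2-D1 at 22.3 ± 1.90, the tapasin gene Tapbp at 19.7 ± 1.63 and the heavy chain gene H2-K1 at 15.1 ± 0.982. The ranges of H2-D1 and Tapbp overlapped over the 7 libraries, whereas B2m lay above H2-D1, and H2-K1 above the next gene, in every library.

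Next by level came Stat2, Ifit3 and Irf7, with overlapping ranges. Stat2, a subunit of the type I complex, stood at 7.23 ± 0.434 CPM per kilobase, and Ifit3, of the interferon-induced Ifit family, at 6.69 ± 1.09. Irf7, the regulator that amplifies type I interferon production, stood at 6.22 ± 1.68. The ranges of neighbours from Stat2 down to Ifih1 overlapped at every step of the order. Isg15, a ubiquitin-like modifier gene that is strongly induced by type I interferon, stood at 1.24 ± 0.568 CPM per kilobase, and the antiviral gene Rsad2 at 0.314 ± 0.0766. Nlrc5 and Ciita, the regulators of class I and class II transcription, were near the bottom of the order at 0.0919 ± 0.0400 and 0.134 ± 0.0502 CPM per kilobase.

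**Figure D1:**
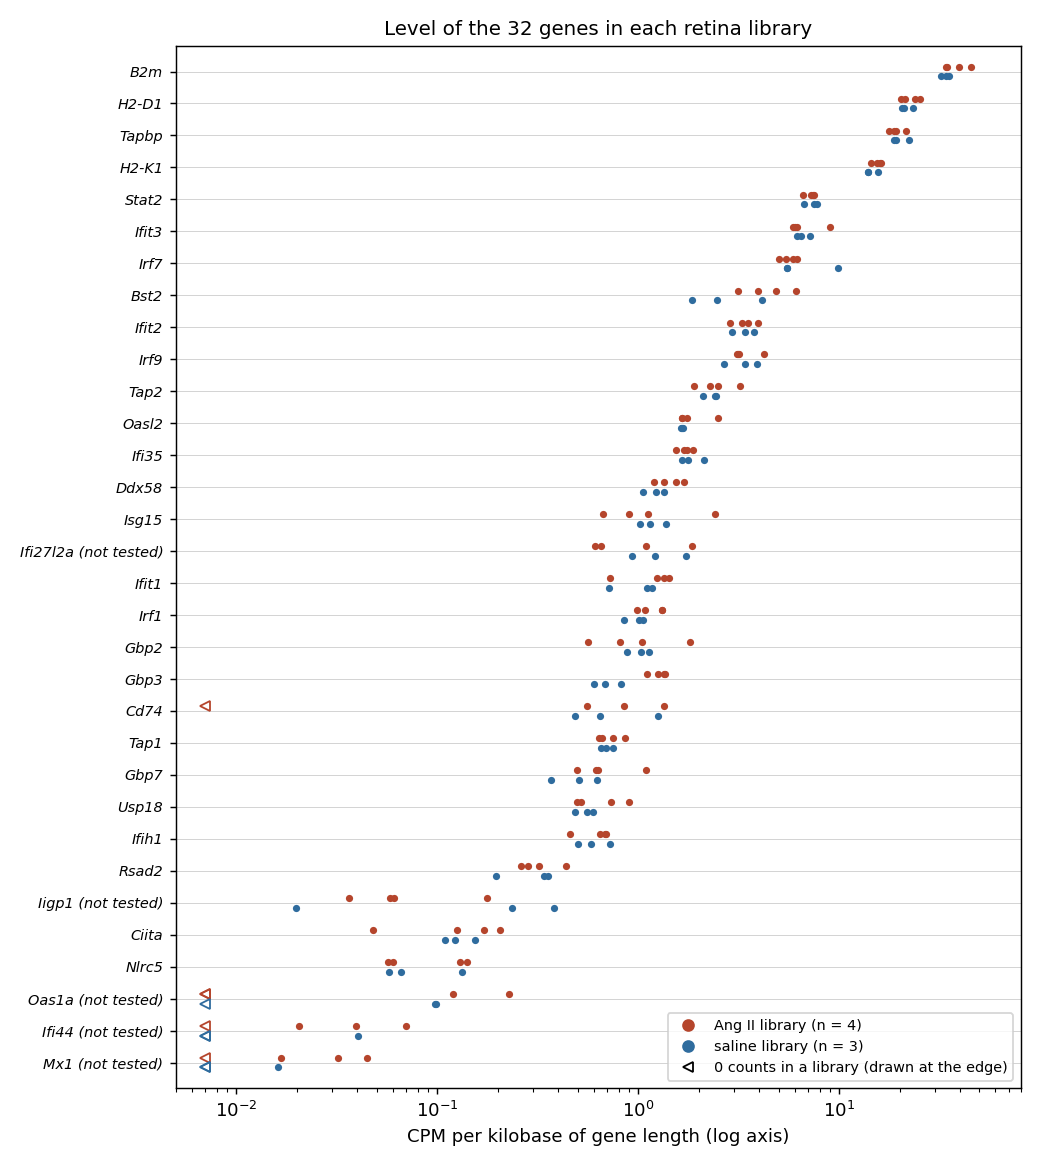
CPM per kilobase of gene length (log axis) of the 32 genes in each library, ordered by mean level, with Ang II libraries in red, saline libraries in blue and libraries without a count as open triangles at the edge. B2m, H2-D1, Tapbp and H2-K1 stand above the other genes, and Oas1a, Ifi44 and Mx1 are at the bottom, with 0 counts in some libraries of both groups.

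The 5 genes that were not testable were classical interferon-induced genes. Mx1, a dynamin-like antiviral GTPase gene, had 3, 0, 1 and 2 counts with Ang II, against 0, 0 and 1 with saline. Ifi44 had 0, 7, 2 and 4 counts with Ang II, against 4, 0 and 0 with saline. Oas1a, which encodes an oligoadenylate synthetase that activates RNase L, had 4, 7, 0 and 0 counts with Ang II, against 3, 0 and 3 with saline. A count of 0 allows up to 3 counts, or 0.170 to 0.210 CPM in these libraries, for counting error alone.

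Ifi27l2a, a small mitochondrial or membrane protein gene of the interferon response, had 5, 14, 8 and 5 counts with Ang II, against 7, 8 and 13 with saline. Iigp1, an immunity-related GTPase gene, had 2, 9, 3 and 3 counts with Ang II, against 1, 17 and 12 with saline. The highest of its counts were thus in 2 saline libraries and the lowest in the third.

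Sequence shared with other genes limits some of these values. Of all 50-base stretches in the GENCODE M21 transcripts of Ifit3, 51.2% also occurred in transcripts of other genes, all of them in its neighbour Ifit3b. For Oas1a the share was 57.6%, mostly in Oas1g. It was 9.63% for H2-K1 and 12.8% for H2-D1, and 0% for B2m, Bst2, Ifit2, Rsad2 and Irf7. Exons of Tapbp in GENCODE M21 overlapped those of the same-strand gene Zbtb22 and the opposite-strand gene Gm19412 over 29% of their bases. For Tap2 this was 18.5% and for Ifi35 16.8%, both with opposite-strand genes. The protocol has no step that marks the strand, so reads from opposite-strand overlaps cannot be told apart. Marking the strand would not separate reads shared with Zbtb22. GENCODE M21 differs from the counted gene in start or end for Tapbp (3628 against 3296 exonic bases) and H2-K1 (2938 against 2608), so their shares are approximate.

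The comparison asked whether these genes differed between Ang II and saline after 28 days. With the quasi-likelihood test of edgeR, 0 of 27 genes passed an adjusted p under 0.05 over all 17078 genes tested, where 0% of all genes passed (smallest adjusted p = 0.226 over all genes). DESeq2 called 0.205% of the genes it tested and 0 of the 27. At an unadjusted edgeR p under 0.05 there was 1 gene higher in Ang II, against 2.9% of all genes, and 0 lower, against 1.72%. Log2 fold changes were above 0 for 22 of 27 genes (81.5%), against 48.9% of all genes tested, with a median of 0.09 against 0.00 for all genes. Scaling by library size alone put 23 of 27 above 0, against 60.7% of all genes. The count was 17 of 26 without Ang II replicate 2 and 17 of 26 without Ang II replicate 3. The groups did not overlap for 1 gene that was higher in Ang II, against 3.18% of all genes, and for 0 that were lower, against 2.73%.

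**Figure D2:**
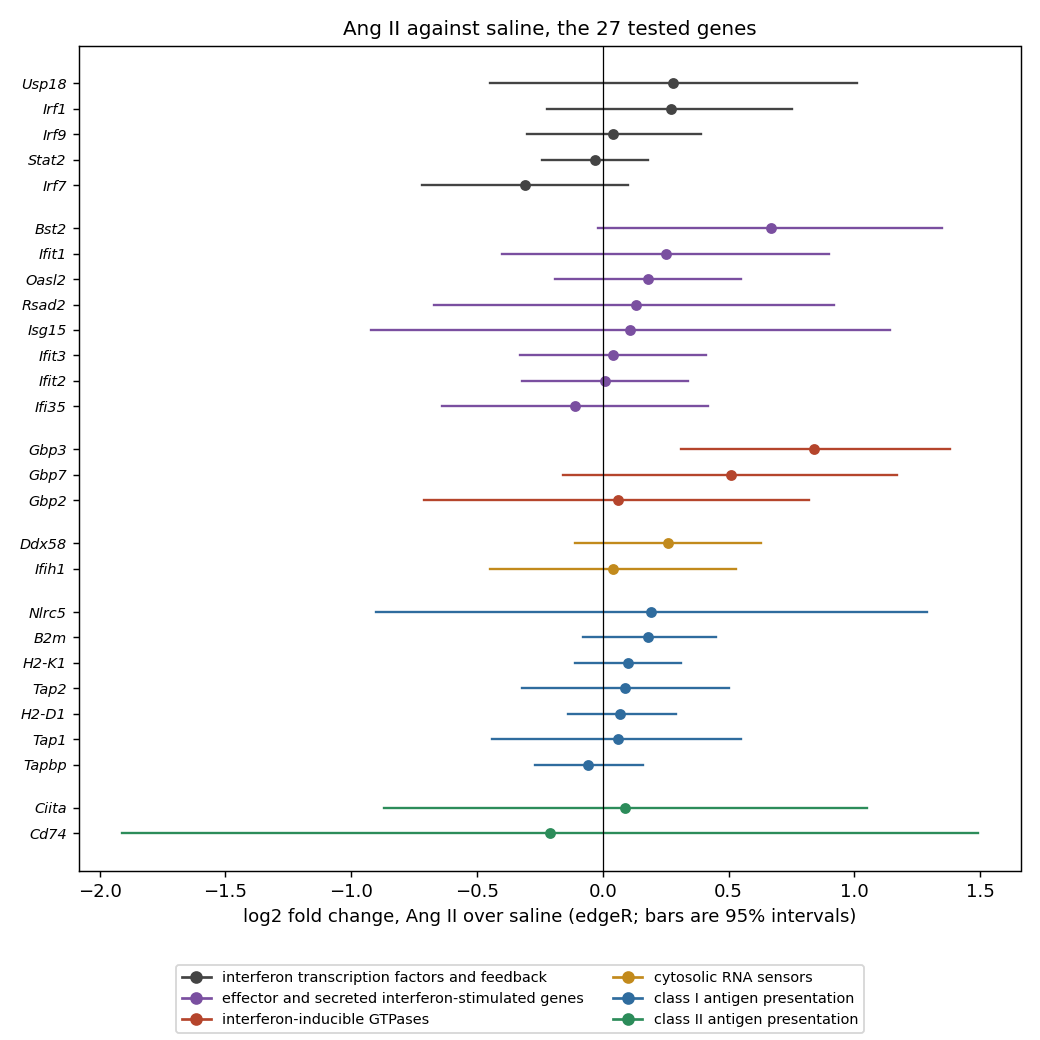
Log2 fold change of Ang II over saline for the 27 tested genes by role, with 95% intervals from the edgeR fit over 4 Ang II and 3 saline libraries. The points lie between -0.31 (Irf7) and 0.84 (Gbp3), and the interval of 1 gene, Gbp3, excludes 0 before adjustment.

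Guanylate-binding proteins, large GTPases that coat intracellular pathogens and their vacuoles, held the gene of smallest p among the 27. Gbp3 (chromosome 3, 142560026 to 142573209) was at 4.08, 4.40, 4.43 and 3.62 CPM with Ang II, against 2.23, 1.96 and 2.69 CPM with saline. Every Ang II library lay above every saline library. Its log2 fold change was 0.84 ± 0.25 (SE; 95% interval 0.31 to 1.38), a 1.80-fold difference, with an edgeR unadjusted p of 0.00436, rank 75 of 17078, an adjusted p of 0.982 and a DESeq2 adjusted p of 0.432. Over the alternatives it stayed between 0.74 and 0.98, with adjusted p-values from 0.289 to 1. The groups were also apart in pigment epithelium and rod markers, as given above.

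The groups overlapped for its neighbours in the same cluster. Gbp7 (142530342 to 142550149) was at 2.78, 3.48, 6.13 and 3.56 CPM with Ang II, against 2.85, 3.50 and 2.08 CPM with saline, so the groups overlapped and Ang II replicate 3 was high. Its log2 fold change of 0.51 ± 0.31 became 0.23 without that library. Gbp2 (142620602 to 142638008) was at 1.42, 2.63, 4.55 and 2.05 CPM with Ang II, against 2.85, 2.59 and 2.20 CPM with saline, with a log2 fold change of 0.06 ± 0.36. Without Ang II replicate 3, the library in which Gfap was also high, it was -0.32. Gbp3 in that library was not set apart in this way, at 4.43 CPM against 4.40 CPM in Ang II replicate 2. Of the stretches in Gbp3 transcripts, 3.75% also occurred in other genes, led by Gbp7.

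Among the effector genes, Bst2 had the largest log2 fold change. It encodes tetherin, a membrane protein that holds budding virus on the cell surface. Bst2 was at 2.84, 5.50, 4.36 and 3.56 CPM with Ang II, against 1.67, 2.24 and 3.73 CPM with saline. Saline replicate 3 lay within the Ang II range. The summed pigment epithelium markers were also highest there among the saline libraries. Among the Ang II libraries, that sum was highest in replicate 3 and Bst2 in replicate 2. The part of this material in Bst2 was not tested. The log2 fold change was 0.67 ± 0.32 (95% interval -0.02 to 1.35, edgeR adjusted p = 0.982), and it was 1.06 without saline replicate 3 (edgeR adjusted p = 0.371, range 0.371 to 1 over the alternatives), where 0.667% of all genes passed and 0 of these. Without saline replicate 1 it was 0.44.

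The Ifit genes, which lie in a cluster on chromosome 19, had overlapping groups. Ifit2 was at 11.3, 15.5, 13.8 and 12.9 CPM with Ang II, against 11.5, 14.9 and 13.4 CPM with saline, a log2 fold change of 0.01 ± 0.16 (95% interval -0.32 to 0.34). Ifit3 was at 10.5, 15.6, 10.3 and 10.7 CPM with Ang II, against 10.7, 11.2 and 12.5 CPM with saline, a log2 fold change of 0.04 ± 0.17. Ang II replicate 2 stood above all the other libraries for Ifit3, while the remaining Ang II libraries lay near or below the lower end of the saline range. Ifit1 had a log2 fold change of 0.25 ± 0.30, with 1.93 to 3.79 CPM in Ang II and 1.89 to 3.10 CPM in saline. It was 0.06 without saline replicate 3 and 0.43 without Ang II replicate 4.

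The same library set the values of 2 further effector genes. Isg15 was at 0.681, 1.83, 0.506 and 0.845 CPM with Ang II, against 0.867, 0.771 and 1.04 CPM with saline, a log2 fold change of 0.11 ± 0.48, and of -0.40 without Ang II replicate 2. Oasl2, an oligoadenylate synthetase-like gene, was at 10.6, 15.9, 11.1 and 10.5 CPM with Ang II, against 10.6, 10.4 and 10.7 CPM with saline. Apart from Ang II replicate 2, its 6 libraries spanned 10.4 to 11.1 CPM, and the log2 fold change of 0.18 ± 0.17 became 0.02 without it. Rsad2 (0.13 ± 0.37) and Ifi35 (-0.11 ± 0.25), which encodes a partner of NMI, had overlapping groups.

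**Figure D3:**
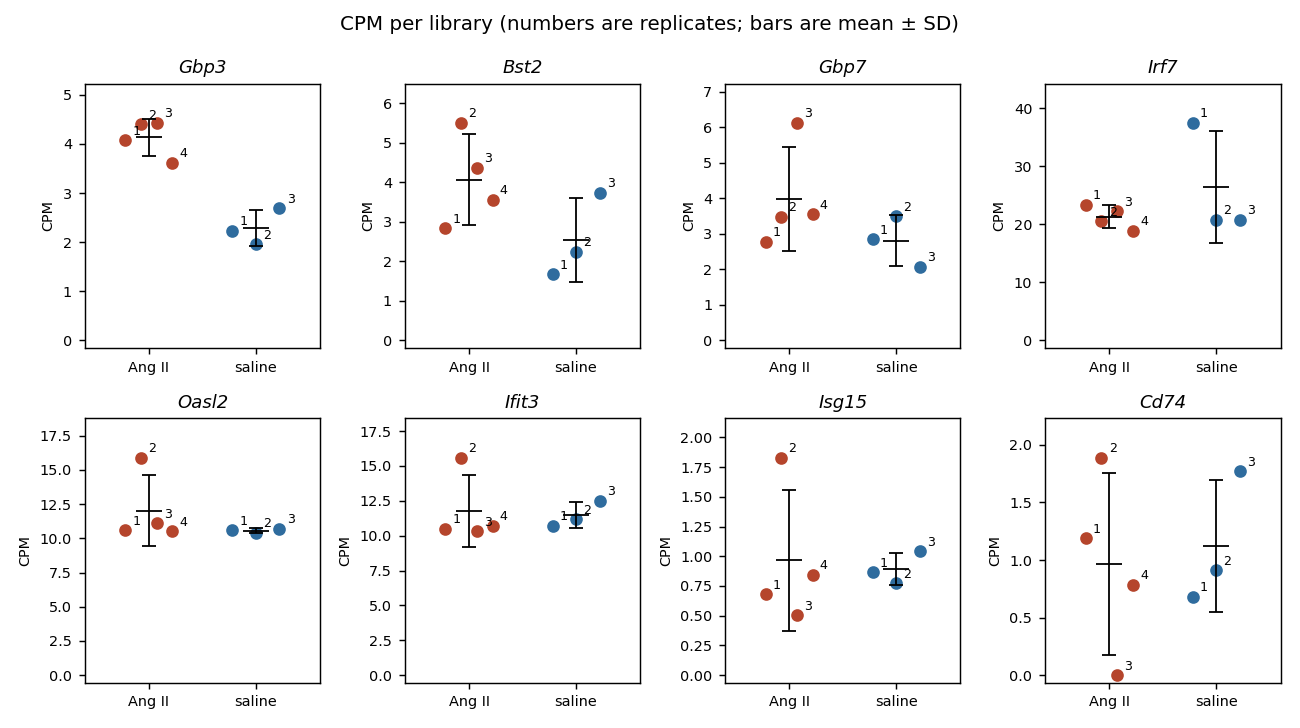
CPM of 8 genes in each library, with replicate numbers beside the points and bars for mean ± SD of 4 Ang II and 3 saline libraries. Gbp3 is the gene whose groups do not overlap; Ang II replicate 2 is the high library for Oasl2, Ifit3 and Isg15, saline replicate 1 for Irf7, and Cd74 is at 0 in Ang II replicate 3.

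The transcription factors showed no difference beyond their spread. Stat2 was at 43.7, 39.0, 42.9 and 44.3 CPM with Ang II, against 45.8, 39.5 and 44.6 CPM with saline, a log2 fold change of -0.03 ± 0.10 (95% interval -0.24 to 0.18). Irf9, the DNA-binding partner of the type I complex, was at 17.1, 16.8, 22.8 and 17.0 CPM with Ang II, against 14.3, 21.0 and 18.3 CPM with saline (0.04 ± 0.16). Irf1, a regulator induced mainly by type II interferon, was at 3.91 to 5.22 CPM in Ang II and 3.36 to 4.22 CPM in saline (0.27 ± 0.23). Usp18, a protease that removes ISG15 and dampens receptor signalling, was at 1.39 to 2.51 CPM and 1.34 to 1.67 CPM (0.28 ± 0.34, and 0.10 without Ang II replicate 2).

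Irf7 was set by 1 saline library. It was at 23.4, 20.5, 22.3 and 18.9 CPM with Ang II, against 37.5, 20.8 and 20.8 CPM with saline. The log2 fold change was -0.31 ± 0.19, the lowest of the 27, and it was 0.03 without saline replicate 1. Of the 27 tested genes, Irf7, Stat2 and Tapbp had their highest value of all 7 libraries in saline replicate 1. These 3 genes were 11.1%, against 10.2% of all genes. Isg15, Ifit3 and Oasl2 were highest in Ang II replicate 2.

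The cytosolic sensors of viral RNA had overlapping groups as well. Ddx58, which encodes RIG-I, was at 11.9, 10.9, 8.47 and 9.53 CPM with Ang II, against 8.61, 7.50 and 9.47 CPM with saline (log2 fold change 0.26 ± 0.17, adjusted p = 0.982). Ifih1, which encodes MDA5, was at 3.74 to 5.61 CPM in Ang II and 4.09 to 5.89 CPM in saline (0.04 ± 0.23).

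The class I light and heavy chain genes had overlapping groups and narrow intervals. H2-K1 was at 37.7, 42.0, 40.5 and 41.6 CPM with Ang II, against 36.2, 41.0 and 36.1 CPM with saline, a log2 fold change of 0.10 ± 0.10 (95% interval -0.11 to 0.31). H2-D1 was at 52.7, 55.3, 65.5 and 61.6 CPM with Ang II, against 54.5, 53.0 and 60.1 CPM with saline (0.07 ± 0.10, interval -0.14 to 0.29). B2m was at 34.1, 39.2, 29.5 and 29.2 CPM with Ang II, against 27.6, 30.3 and 29.3 CPM with saline (0.18 ± 0.12, interval -0.08 to 0.45, and 0.09 without Ang II replicate 2). A doubling lies outside these 3 intervals.

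Peptide loading genes gave similar values. Tapbp, which encodes the chaperone that links class I molecules to the peptide transporter, was at 62.1, 70.9, 63.6 and 58.8 CPM with Ang II, against 73.8, 62.0 and 63.3 CPM with saline (-0.06 ± 0.10). The transporter subunit genes Tap1 and Tap2 had log2 fold changes of 0.06 ± 0.23 and 0.09 ± 0.19. Nlrc5 was at 0.483 to 1.20 CPM in Ang II and 0.489 to 1.12 CPM in saline (0.19 ± 0.51), too low for a narrow interval (-0.90 to 1.29).

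Class II genes were sparse and uneven between libraries. Cd74, the invariant chain that escorts class II molecules, had 21, 31, 0 and 13 counts with Ang II, against 11, 13 and 29 with saline. At 0 counts, Ang II replicate 3 allows up to 0.190 CPM, while the other 6 libraries held 0.681 to 1.89 CPM. The log2 fold change of -0.21 ± 0.77 turned to 0.20 without that library. The class II alpha chain gene H2-Aa, chosen here after its values were seen, had 9, 30, 1 and 0 counts with Ang II, against 5, 4 and 8 with saline, so Ang II replicate 2 was the highest for both. The partner gene H2-Ab1, chosen likewise, had 27 to 34 counts in Ang II and 24 to 29 in saline. Ciita was at 0.454 to 1.96 CPM in Ang II and 1.04 to 1.47 CPM in saline (0.09 ± 0.45).

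Read by library, 12 of the 27 tested genes (44.4%) had their highest value in Ang II replicate 2, against 9.5% of all genes tested. Among them were Isg15 at 2.27 times the median of the other 6 libraries, Bst2 at 1.72 times, Usp18 at 1.67 times, Ifit3 at 1.46 times and B2m at 1.33 times, beside Oasl2 as given above. Of the 5 untested genes, Oas1a, Ifi44 and Ifi27l2a were highest there too, at 7, 7 and 14 counts. Mx1 had 0 counts there, and Iigp1 had 9 counts there against 17 in saline replicate 2. Stat2, Irf7 and Irf9 were not, at 0.887, 0.951 and 0.951 times that median. Of 105 tested genes of the other pathway lists, 24 (22.9%) were highest in this library. Another 24 were highest in saline replicate 2 and 22 in Ang II replicate 3. Over all genes the shares of these libraries were 9.5%, 22.4% and 19.6%. The lists differed: Ang II replicate 2 was highest for 62.5% of 8 other GTPases and for 0 of 11 other class I heavy chains.

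Markers of other cells differed in direction in Ang II replicate 2. The sum of 13 T, NK and B cell markers was 2.32 CPM there and 0.805 to 1.65 CPM elsewhere, and 4 of the 13 (Cd8b1, Ncr1, Klrb1c and Ms4a1) had 0 counts in every library. Cd3e, a T cell receptor gene, had 1 count there and 0 in the other 6. The sum of 19 microglia and macrophage markers was 93.5 CPM there and 73.3 to 89.2 CPM elsewhere, and lens and cornea genes were highest there as given above. Dendritic cell markers were lowest there, at 10.3 CPM against 10.6 to 13.9 CPM elsewhere, with Cd209a at 0 counts in every library. Neutrophil and monocyte markers were also lowest there, at 1.22 CPM against 1.24 to 4.16 CPM. Their part in this result was not tested. Ang II replicate 3 held the highest value of 8 of the 27 genes (29.6%), among them Gbp2, Gbp7, Rsad2 and Irf9, against 19.6% of all genes.

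**Figure D4:**
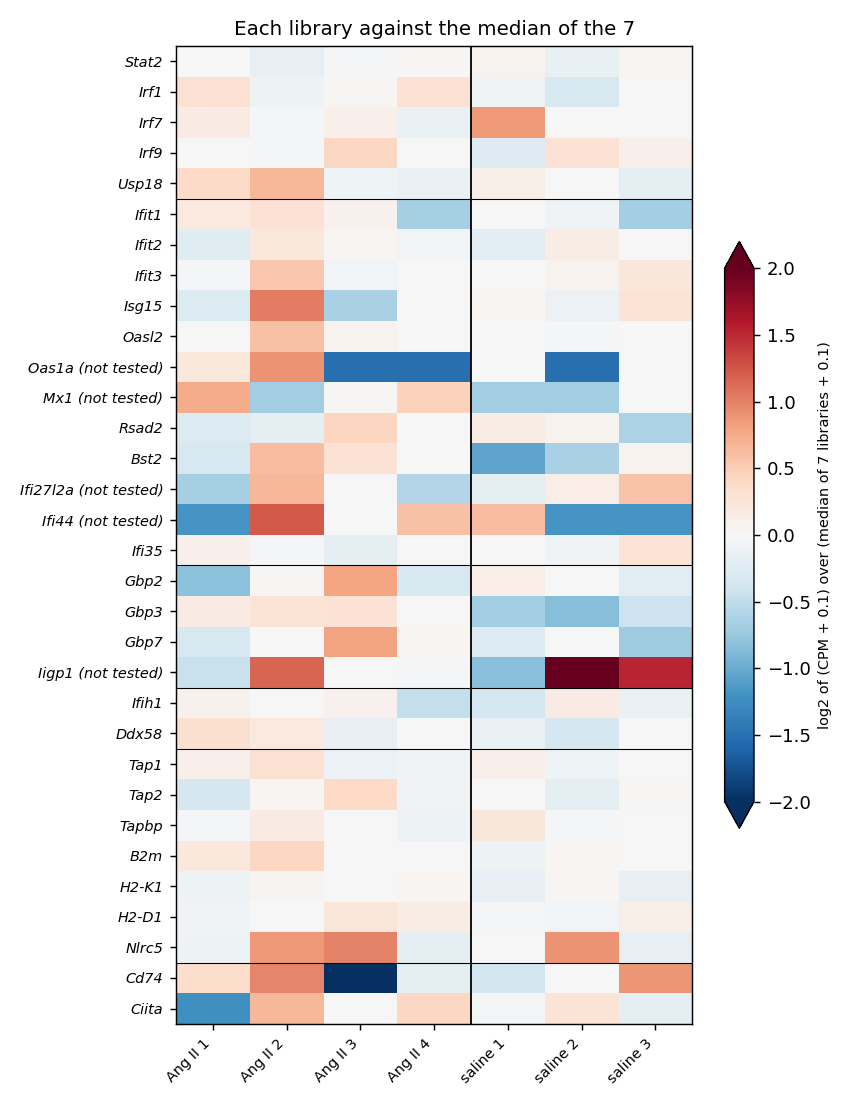
Log2 ratio of each library to the median of the 7 libraries (0.1 CPM added to both) for the 32 genes in order of role, with Ang II libraries left of the line and saline libraries right of it. The column of Ang II replicate 2 is red for Usp18, Isg15, Oasl2, Ifit3, Bst2 and Cd74, and Iigp1 is high in saline replicates 2 and 3.

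Other genes of the pathway came from lists with 162 genes in the table. Of the 14 interferon genes listed, 11 had 0 counts in every library. Ifnz had 2 counts in each of 2 Ang II libraries, Ifng had 1 count in Ang II replicate 3 and Ifnk had 1 count in Ang II replicate 1. The receptors and kinases were measurable, with 14 of 15 tested, 0 passing in either direction and a median log2 fold change of 0.03. Jak1, the kinase shared by all interferon receptors, was at 188.7 ± 18.2 CPM in Ang II (SD, n = 4) and 188.5 ± 8.88 CPM in saline (SD, n = 3). Ifngr1, a receptor chain for type II interferon, had a log2 fold change of 0.12 ± 0.11, and Socs3, a feedback inhibitor of cytokine receptors, one of 0.36 ± 0.30, which was 0.08 without Ang II replicate 3, 0.15 without saline replicate 3 and 0.63 without saline replicate 1.

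Nucleic acid sensors and adaptors held the smallest p among these lists. Eif2ak2 (chromosome 17) encodes PKR, the kinase that stops translation on binding double-stranded RNA. It was at 6.12, 6.66, 8.35 and 4.71 CPM with Ang II, against 3.22, 2.87 and 4.09 CPM with saline, with no overlap between the groups. Its log2 fold change was 0.92 ± 0.25, with an edgeR adjusted p of 0.840 and a DESeq2 adjusted p of 0.145. Over the alternatives its log2 fold change was 0.78 to 1.09 and its lowest adjusted p was 0.0768, with no filter on low counts. Trim25, the ubiquitin ligase that activates RIG-I, was at 51.4, 53.8, 54.9 and 47.8 CPM with Ang II, against 42.2, 43.4 and 43.1 CPM with saline, also without overlap (0.28 ± 0.09, adjusted p = 0.982). Of the 17 tested genes of this list 0 passed, 14 lay above 0 and the median was 0.13. Adar, which edits double-stranded RNA, was at 0.00 ± 0.09.

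The other interferon-stimulated genes had 35 of 52 members tested, 0 passing, 26 above 0 and a median of 0.19. Parp9, which encodes an ADP-ribosyltransferase-like protein, was at 5.26 ± 0.731 CPM in Ang II (SD, n = 4) against 3.62 ± 0.707 CPM in saline (SD, n = 3), and the groups did not overlap at the values before rounding (0.53 ± 0.23, edgeR adjusted p = 0.982). Mx2 was at 1.04 ± 0.50 and Znfx1 at -0.13 ± 0.10. Over all 105 tested genes of the lists, 67 lay above 0 (63.8%), against 48.9% of all genes, with a median of 0.06. Of these 105 genes, 4 were higher without overlap and 1 was lower, against 3.18% and 2.73% of all genes. Beside Eif2ak2, Trim25 and Parp9 these were, chosen after their values were seen, Parp14 (0.24 ± 0.19) and the lower Slfn5 (-0.36 ± 0.31).

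The remaining GTPases (8 tested, median 0.13), class I heavy chains (11 tested, median -0.14), peptide supply genes (14 tested, median -0.01) and class II genes (6 tested, median -0.07) had 0 genes passing in either direction. Above 0 lay 7 of the 8 GTPases, but 4 of the 11 heavy chains, 5 of the 14 peptide supply genes and 2 of the 6 class II genes. The share over all genes was 48.9%. Among the GTPases, Gbp9 was at 0.27 ± 0.27, Gbp6 at -0.28 ± 0.31 and Igtp at 0.04 ± 0.23. Of the class I-like genes, Cd1d1, which presents lipids, was at 0.68 ± 0.32, Mr1, which presents vitamin metabolites, at 0.35 ± 0.21 and H2-T24 at -0.29 ± 0.24. The proteasome activator gene Psme2 was at 0.25 ± 0.20 (0.05 without saline replicate 2), the chaperone gene Calr at -0.05 ± 0.11 and Rfx5, a factor that binds class I and class II promoters, at -0.24 ± 0.13. The lysosomal protease gene Lgmn was at -0.18 ± 0.10 and H2-DMa, which exchanges peptides on class II molecules, at -0.10 ± 0.23.

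Markers of immune cells were low in both groups. Microglia and macrophage markers summed to 79.4 to 93.5 CPM in Ang II and 73.3 to 84.0 CPM in saline, with 17 of 19 detected in every library. Cx3cr1, a microglial receptor gene, was at 3.35 ± 0.467 CPM in Ang II (SD, n = 4) and 3.16 ± 0.629 CPM in saline (SD, n = 3). Ptprc, the gene of the common leukocyte antigen, had 8 to 13 counts in Ang II and 4 to 16 in saline. Neutrophil and monocyte markers summed to 1.22 to 4.16 CPM and 1.24 to 2.10 CPM, with Elane at 0 counts in every library.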

How the data were processed

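The deposited table gives raw, whole-number read counts for each gene. CASAVA, HISAT2 2.0.5, featureCounts 1.5.0-p3 and build mm10 are named in the submitters' processing notes. The annotation release, strand setting and handling of reads that match several genes are not given in the sources used here. Gene lengths are those in the deposited table. Columns were matched by the sample descriptions, with 0 left unmatched.

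The test was edgeR 4.0.16 (R 4.3.3), quasi-likelihood, robust and two-sided, with group as the sole term, filterByExpr, TMM scaling and Benjamini-Hochberg adjustment over all genes tested. CPM used the TMM-scaled library size. SEs were derived from the F statistic. DESeq2 1.42.0 was an alternative. The fit was tested on simulated counts, drawn independently for each gene and without the marker differences between libraries given above. It called 79% of 100 genes with a log2 change of 1 and 94.9% of 99 with a change of 2. Of its 186 calls, 6.99% were false. Members and lists were chosen with earlier results of these data known. Named genes were all members and, of each pathway list, the 2 of smallest p and the 1 of highest level per kilobase, except where stated. Intervals cover 95%, and limits for a count of 0 cover counting error alone. Alternatives were other scalings, no filter, DESeq2, the replicate number as a block and each library left out. A withheld item is not reported here.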

Additional observations from a re-analysis of the deposited data

Results flagged for a closer look

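Within the 4 Ang II libraries, 52 genes were checked for a library far from the others relative to the group's range (Dixon's 95% critical value). Chance flags about 1 in 20 groups. Irf9 was at 22.8 CPM in Ang II replicate 3, against 16.8 to 17.1 CPM in the other Ang II libraries. Ifit3 was at 15.6 CPM in Ang II replicate 2, against 10.3 to 10.7 CPM. Oasl2 was at 15.9 CPM in the same library, against 10.5 to 11.1 CPM. Cd1d1 was at 1.89 CPM in that library, against 2.55 to 2.66 CPM, so it was the low one there.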

How the results depend on the processing

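Of the 27 tested genes, 0 passed under any of the 12 alternatives in which they were fitted, and 11 kept their sign in all of them. Over all genes, edgeR called 0, against 35 with DESeq2, 98 with no filter beyond 1 count, 56 with the replicate number as a block, and 0 to 117 when each library was left out, the 117 without saline replicate 3 (0.667% of genes). The labels do not say that the replicate numbers pair the samples. Deviations of same-numbered libraries correlated at -0.069, -0.021 and 0.046, and those of the other pairs checked at -0.113 to 0.101. Values this small cannot decide whether the numbers pair the samples. The median of the tested genes ranged from 0.07 to 0.18 without a library, the 0.18 without Ang II replicate 1. Stat2 turned to 0.02 with library size alone and Ciita to -0.17 with the replicate block. Without a library, signs turned within these ranges: Stat2 -0.09 to 0.02, Irf7 -0.45 to 0.03, Irf9 -0.09 to 0.17, Ifit2 -0.08 to 0.10, Ifit3 -0.13 to 0.11, Isg15 -0.40 to 0.32, Rsad2 -0.10 to 0.28, Ifi35 -0.18 to 0.01, Gbp2 -0.32 to 0.27, Ifih1 -0.07 to 0.19, Tap1 -0.03 to 0.12, Tap2 -0.06 to 0.20, Tapbp -0.11 to 0.03, Nlrc5 -0.02 to 0.64, Cd74 -0.75 to 0.30, Ciita -0.17 to 0.38, Igtp -0.07 to 0.12 and Calr -0.11 to 0.04. The sign was kept without each library for Irf1 0.17 to 0.34, Usp18 0.10 to 0.40, Ifit1 0.06 to 0.43, Oasl2 0.02 to 0.24, Bst2 0.44 to 1.06, Gbp3 0.74 to 0.98, Gbp7 0.23 to 0.69, Ddx58 0.17 to 0.35, B2m 0.09 to 0.24, H2-K1 0.07 to 0.16, H2-D1 0.02 to 0.14, Socs3 0.08 to 0.63, Ifngr1 0.07 to 0.16, Eif2ak2 0.78 to 1.09, Trim25 0.26 to 0.32, Parp9 0.39 to 0.68, Mx2 0.67 to 1.52, Znfx1 -0.19 to -0.08, Gbp9 0.15 to 0.41, Gbp6 -0.41 to -0.11, Cd1d1 0.51 to 0.97, Mr1 0.21 to 0.46, H2-T24 -0.50 to -0.16, Rfx5 -0.32 to -0.08, Psme2 0.05 to 0.44, Lgmn -0.28 to -0.07 and H2-DMa -0.20 to -0.01. The causes were not tested. Nlrc5 was not fitted without Ang II replicate 2 or 3, where it did not pass the filter. Isg15, Nlrc5, Cd74 and Ciita had the 4 widest intervals of the 27.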
